A study of Mus musculus with 14 samples.

Results

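Cd82 and its relatives among the tetraspanins were followed in mouse fibroblasts lacking Ptdsr, the gene first described as the phosphatidylserine receptor and now named Jmjd6. The group was defined as the probes named Cd82, Cd9, Cd63, Cd81, Cd151, Tspan3, Tspan4, Tspan6, Tspan7 or Tspan31 with values on 10 or more of the 14 arrays. Of these 10 genes, 8 had a named probe, each with 1, and 7 had enough values, among 9252 genes tested in all. The 7 were Cd82, Cd9, Cd63, Cd81, Cd151, Tspan4 and Tspan31. Cd82 was chosen by its measured ratio of knockout to wild type on these arrays, so that ratio is given as a description and with no test. The family list was also drawn up with earlier results of these data in view.

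Each array carried RNA of Ptdsr-/- fibroblasts in one dye and RNA of wild-type (Ptdsr+/+) fibroblasts in the other. Cy5 marked the knockout on 7 arrays and the wild type on the 7 others. The series design speaks of 2 fibroblast cultures without saying which arrays belong to which, and strain, passage and the form of the Ptdsr deletion are not stated. The spread behind each p-value is thus that of the arrays, which may be technical. Values are log2 (knockout / wild type) after centring each array on its median, so a negative value means a lower level in the knockout. This direction is likely but not stated. It rests on the sign of a coded extreme, which had a positive sign wherever Cy5 marked the knockout and a negative sign on the other arrays. If the Cy3 arrays had not been turned before deposit, a ratio equal in both dye orientations would be a dye effect and not a knockout effect. Ratios carry no level, so whether a gene was expressed strongly or weakly, and whether the cells carried fibroblast markers, could not be read from these values. Between 13165 and 19615 probes had a usable ratio on an array, and between 13.4% and 31.4% of an array's values were ratios of small whole numbers, here taken as a sign of dim spots. The deleted gene itself was checked with its Jmjd6 probe, which ranged from -1.74 to 2.92 with a median of -0.82, was below 0 on 12 of the 14 arrays, and did not pass (limma, adjusted p = 0.895). A second Jmjd6 probe with 5 values, 4 of them above 0, was not tested, and whether either probe lies in the deleted part is not stated.

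Tetraspanins are small membrane proteins that gather integrins, immunoglobulin-family proteins and proteases into membrane domains. Through these partners they act on adhesion, migration, membrane fusion and the traffic of receptors. Fibroblasts express several of them. Cd82, also called Kai1, is known as a suppressor of metastasis that restrains cell migration and promotes the internalisation of integrins and growth factor receptors. Cd9 and Cd81 are close relatives with roles in cell fusion, Cd63 is found mainly in late endosomes, lysosomes and exosomes, and Cd151 binds laminin-binding integrins directly.

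Cd82 was lower in the knockout on each of the 14 arrays. Its mean log2 ratio was -0.52 ± 0.21 (SD, n = 14), a 1.43-fold lower level. With the knockout in Cy5 the values ran from -0.77 to -0.012 with a median of -0.54, and with the knockout in Cy3 they ran from -0.67 to -0.43 with a median of -0.55. The orientations overlapped, and the Cy3 values fell inside the Cy5 range. Replicate 7 was the array nearest to 0, at -0.012, and replicate 9 came next at -0.22, while the other 12 lay at -0.43 or below. Before centring, replicate 7 stood at -0.165 and all 14 values were also below 0. Without replicate 7 the mean was -0.56 ± 0.15 (SD, n = 13). None of the 14 Cd82 values was a ratio of small whole numbers.

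**Figure D1:**
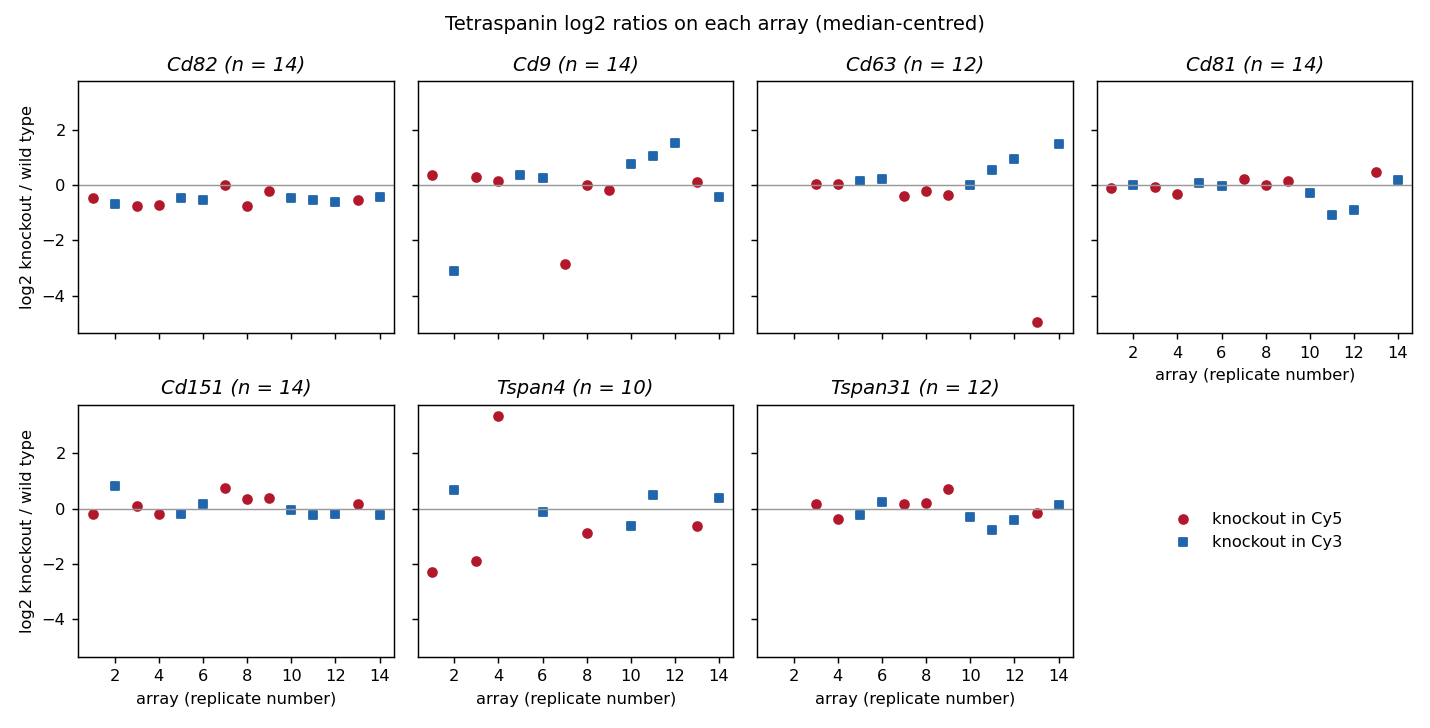
Median-centred log2 ratio of knockout over wild type (y axis) on each array (x axis, replicate number) for the 7 tetraspanin genes, with circles for the knockout in Cy5 and squares for the knockout in Cy3. Cd82 lies below 0 on all 14 arrays between -0.77 and -0.012, while single arrays of Cd9, Cd63 and Tspan4 lie 2 or more log2 units from 0.

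The spread of Cd82 between arrays was small. Among the 6134 probes with a value on every array, 7 had a smaller SD than Cd82, and the median SD was 0.63. Its mean was undercut by 117 of these probes. A ratio below 0 on all 14 arrays was found for 16 of the 6134 probes (0.261%), Cd82 among them. As these figures come from the comparison for which Cd82 was picked, nothing is read from them. They also rest on the direction of the Cy3 arrays. With those arrays turned, Cd82 had a mean of 0.018 and an SD of 0.57, with 7 arrays on each side of 0. That split follows by construction, as Cd82 was below 0 on all 14 arrays. In this form 2702 probes had a smaller SD than Cd82 and 3223 had a lower mean.

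**Figure D2:**
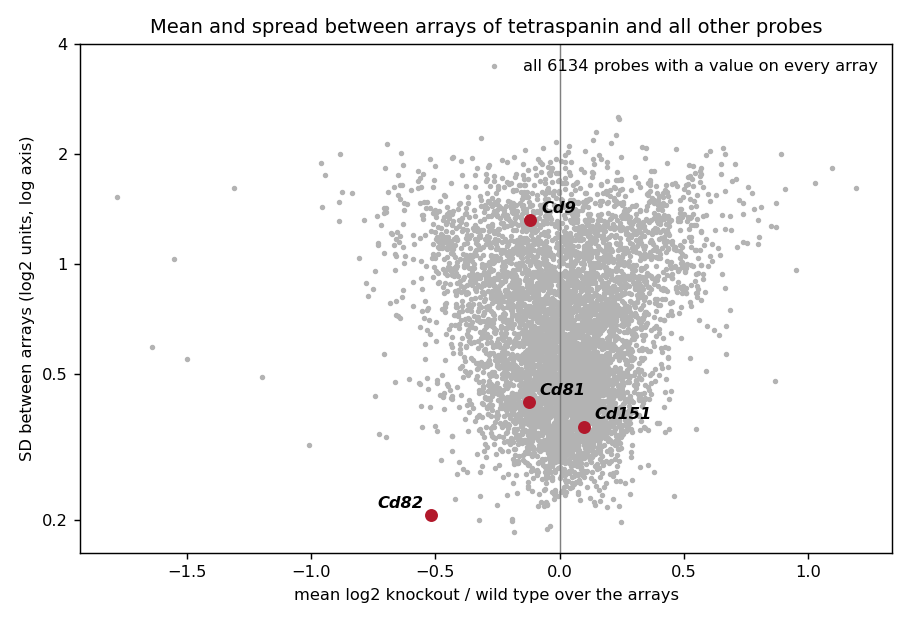
Mean log2 ratio (x axis) against the SD between arrays (y axis, log scale) for the 6134 probes with a value on all 14 arrays, with the tetraspanins Cd82, Cd9, Cd81 and Cd151 marked. Cd82 lies at the lower left edge, at a mean of -0.52 and an SD of 0.21, while Cd81 and Cd151 lie within the body of the cloud and Cd9 has an SD of 1.32.

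The dye term was close to 0 for Cd82. It was not itself used to choose the genes, but an SD of 0.21 over all 14 arrays limits its size. Nothing about the knockout ratio is therefore read from it. The mean of Cd82 was -0.50 ± 0.29 (SD, n = 7) in the Cy5 orientation and -0.53 ± 0.087 (SD, n = 7) in the Cy3 orientation. The dye term was 0.018 ± 0.11 (SE) log2 units and did not pass (limma, adjusted p = 0.981). With the sign of the Cy3 arrays turned, the mean of Cd82 became 0.018, which is the dye term again by construction. Across ranges of replicate numbers, which are no labelled groups, Cd82 had a mean of -0.61 ± 0.12 (SD, n = 6) in replicates 1 to 6, of -0.44 ± 0.28 (SD, n = 6) in replicates 7 to 12 and of -0.48 ± 0.080 (SD, n = 2) in replicates 13 and 14.

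None of the 6 other tetraspanins passed the test of knockout against wild type, in which limma called 6 of 18503 probes (0.0324%) at a Benjamini-Hochberg adjusted p below 0.05, and 0 of the 6 had an unadjusted p below 0.05, against 5.05% of all probes tested. Their adjusted p from limma lay between 0.920 and 0.978. The interval of each mean included 0. It was widest for the genes whose arrays disagreed, so changes of over 0.5 log2 units in either direction could not be told from no change for Cd9, Cd63 and Tspan4.

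Cd9 and Cd81, the pair of close relatives, moved apart on some arrays. Cd9 values ran from -3.11 to 1.54 with a median of 0.19, and 10 of 14 were above 0. Replicates 2 and 7 stood at -3.11 and -2.87, well below the next lowest array at -0.45. The mean of Cd9 was -0.12 ± 1.32 (SD, n = 14, 95% interval from -0.83 to 0.59, limma adjusted p = 0.977), and without replicates 2 and 7 it was 0.36 ± 0.54 (SD, n = 12). The sign of the Cd9 mean thus turned with these arrays. Cd81 values ran from -1.09 to 0.47 with a median of -0.013. Replicates 11 and 12, both with the knockout in Cy3, were the lowest at -1.09 and -0.89, and Cd9 was highest on these same arrays, at 1.07 and 1.54. The mean of Cd81 was -0.12 ± 0.42 (SD, n = 14, 95% interval from -0.41 to 0.16, limma adjusted p = 0.920), and 0.021 ± 0.22 (SD, n = 12) without replicates 11 and 12.

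Cd63, the endosomal and lysosomal tetraspanin, had values on 12 arrays, from -4.95 to 1.49 with a median of 0.038. Replicate 13 alone stood at -4.95, and the other 11 lay between -0.41 and 1.49. The mean was -0.21 ± 1.59 (SD, n = 12, 95% interval from -1.03 to 0.60, limma adjusted p = 0.957). Without replicate 13 the fitted mean was 0.19, on the other side of 0 (limma adjusted p = 0.935). Cd63 also had the largest dye term among the 7 genes, with -0.98 ± 1.96 (SD, n = 6) in the Cy5 orientation and 0.55 ± 0.57 (SD, n = 6) in the Cy3 orientation. Without replicate 13 the Cy5 mean was -0.18 ± 0.21 (SD, n = 5), with values up to 0.043, which overlapped the lowest Cy3 value of -0.010. The dye term of Cd63 did not pass (-0.77 ± 0.38 SE, limma adjusted p = 0.680; -0.37 ± 0.16 SE and adjusted p = 0.685 without replicate 13). Its unadjusted p was 0.0633, against 0.0449 without replicate 13 and 0.0429 without centring (limma adjusted p = 0.604).

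Cd151, the integrin-binding tetraspanin, was above 0 on 7 arrays and below 0 on 7. Its values ran from -0.24 to 0.83 with a median of 0.018. The highest were replicate 2 at 0.83 and replicate 7 at 0.73, and the fitted mean was 0.028 without the first and 0.051 without the second. The mean was 0.097 ± 0.36 (SD, n = 14, 95% interval from -0.17 to 0.37, limma adjusted p = 0.935). Cd151 stood above Cd82 on all 14 arrays. The counts were 12 of 14 for Cd81, 11 of 14 for Cd9, 9 of 12 for Cd63 and 5 of 10 for Tspan4. As Cd82 was chosen by its ratio, nothing is read from this order. Cd151, Cd81, Tspan31 and Cd82 were the genes whose SD stayed below 0.5 log2 units.

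Tspan31, a tetraspanin gene known for its amplification in sarcomas beside Cdk4, had 12 values from -0.76 to 0.71, with a median of -0.0060 and 6 on each side of 0. Its lowest values were on replicates 11 and 12, at -0.76 and -0.41, where Cd81 was also lowest. The mean was -0.050 ± 0.40 (SD, n = 12, 95% interval from -0.36 to 0.26, limma adjusted p = 0.977). It stood above Cd82 on 11 of the 12 arrays that measured both.

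Tspan4, which is known from the formation of migrasomes, was the gene just inside the limit, with values on 10 arrays. They ran from -2.30 to 3.36 with a median of -0.38, and 3 of them were ratios of small whole numbers. Replicate 4 stood at 3.36 and the next highest array at 0.68. The mean was -0.16 ± 1.58 (SD, n = 10, 95% interval from -1.16 to 0.84, limma adjusted p = 0.978), and -0.55 ± 1.04 (SD, n = 9) without replicate 4. Without that array the fitted mean was -0.64 and the dye term -0.79, with unadjusted p of 0.0205 and 0.00649, and neither passed (limma adjusted p = 0.862 and 0.535). The fitted mean of Tspan4 was above 0 without replicate 1 (0.071) and without replicate 3 (0.022), so its sign turned with single arrays. Tspan3 lay outside the limit and was not tested, with 7 values, 2 of them with the knockout in Cy3. Its values ran from -3.42 to 1.39, 5 of them were ratios of small whole numbers, and 1 more array held a coded extreme. Tspan6 and Tspan7 had no named probe and so could not be analysed.

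**Figure D3:**
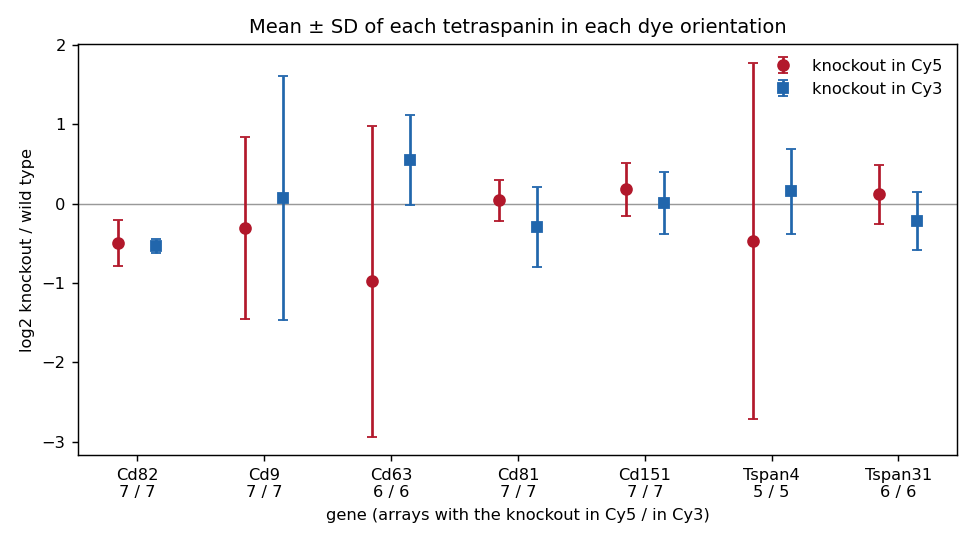
Mean log2 ratio of knockout over wild type (y axis) for each tetraspanin gene (x axis, with the numbers of arrays), shown for the knockout in Cy5 (circles) and in Cy3 (squares), with bars for the SD between arrays. Cd82 has nearly equal means of -0.50 and -0.53, and Cd63 lies at -0.98 and 0.55 with overlapping bars.

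No dye term passed for any of the 7 genes (0 called by limma, and 0 with an unadjusted p below 0.05 on all arrays). Over all 18503 probes the dye term was called for 1 (0.0054%), and 7.66% had an unadjusted p below 0.05. Within single arrays, Cd82 was the lowest tetraspanin on 3 of 14, and 1 other gene lay below it on 8. On the other 11 arrays the lowest gene was Tspan4, Cd9, Cd63 or Cd81, and it changed from array to array.

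The further members of the superfamily gave a comparison outside the 10 listed genes. Of 21 listed, 13 were tested with 15 probes, and 0 were called by limma, with 0 at an unadjusted p below 0.05. Their gene means ran from -0.25 to 0.20 with a median of -0.044, against a median fitted mean of 0.0065 over all probes, and 9 lay below 0. Tspan18, the coding gene next to Cd82 in RefSeq (GRCm38.p6), had the largest absolute mean of those on 12 or more arrays, at 0.20 ± 1.33 (SD, n = 14), with values from -2.17 to 3.81. Upk1a, a plaque protein of the urothelium, stood at -0.15 ± 0.36 (SD, n = 12) and Tspan13 at -0.14 ± 0.43 (SD, n = 14). Tspan33 (-0.092), Tspan17 (-0.080) and Tspan2 (0.071) were the other means of the largest size. Tspan32, the RefSeq neighbour of Cd81, had a mean of -0.018 ± 0.69 (SD, n = 14).

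The tetraspanin partners covered integrins, the immunoglobulin proteins Igsf8 and Ptgfrn, Adam proteases, growth factor receptors and cytoskeletal linkers. Of 34 listed genes, 25 were tested with 39 probes. By limma 0 were called, and 3 probes (7.69%) had an unadjusted p below 0.05, all 3 of them lower, a share near the 5.05% of all probes. The genes of these 3 are named for the size of their means. The gene means ran from -0.62 to 0.36 with a median of 0.052, and 12 lay below 0 and 13 above. Adam17, the protease that sheds membrane-bound growth factors and cytokines, had a mean of -0.62 ± 0.84 (SD, n = 13) and was below 0 on 11 of 13 arrays. Ezr, which encodes the membrane-actin linker ezrin, stood at -0.47 ± 0.75 (SD, n = 14) and was below 0 on 11 of 14. Both had an adjusted p of 0.895 in limma, as had the Itgb5 probe with the smallest p. Itgb5, an integrin chain that pairs with the alpha v chain, had 3 probes with fitted means from -1.11 to -0.050 and a gene mean of -0.40 ± 0.65 (SD, n = 14).

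The remaining partners of the largest size were Timp1, which binds Cd63 at the cell surface, at -0.41 ± 0.86 (SD, n = 12), Itga4 at 0.36 ± 1.24 (SD, n = 13) and Cd47 at -0.34 ± 0.81 (SD, n = 14). Each of these means was smaller than its SD between arrays. Itgb1, the shared chain of most tetraspanin-bound integrins, had 6 probes with a gene mean of 0.10 ± 0.38 (SD, n = 14). Igsf8, the direct partner of Cd9 and Cd81, stood at -0.11 ± 0.42 (SD, n = 14). Neither passed (limma, adjusted p from 0.895 upward).

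**Figure D4:**
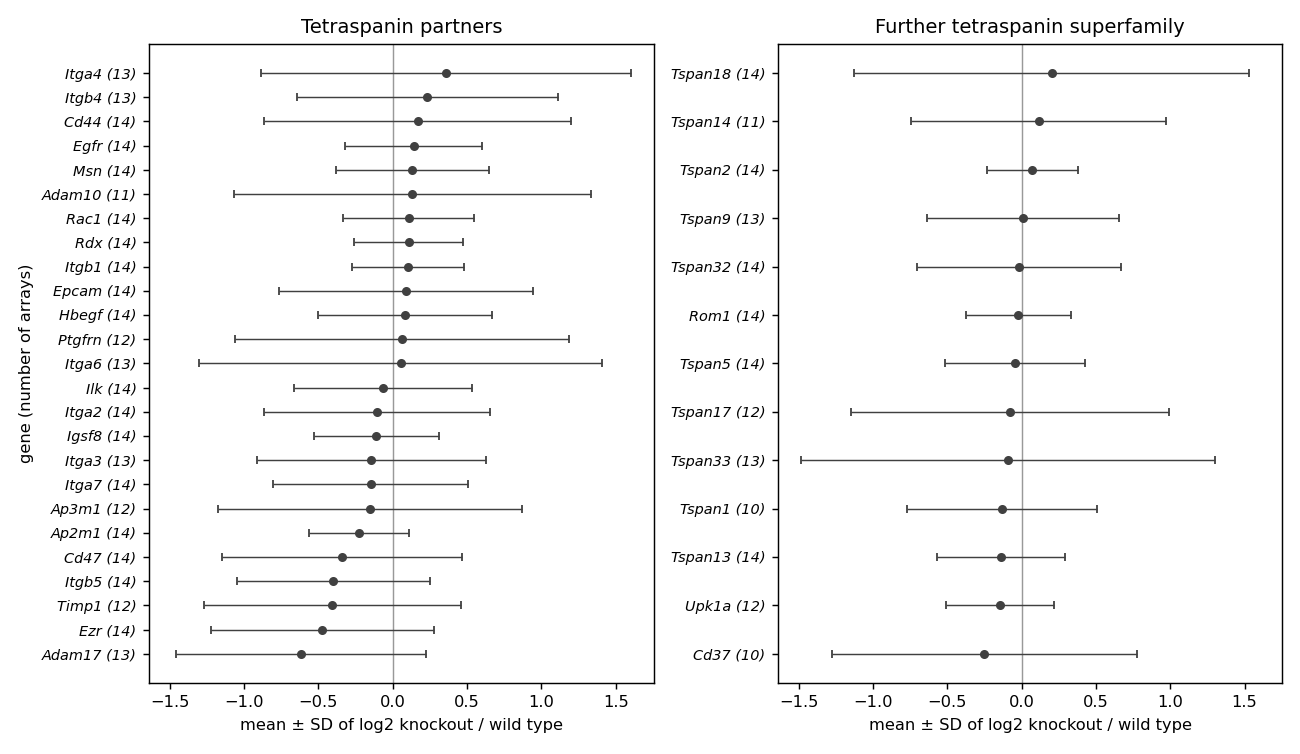
Mean log2 ratio of knockout over wild type with the SD between arrays as bars (x axis) for 25 tetraspanin partners (left) and 13 further superfamily members (right), with the number of arrays after each gene. The means run from -0.62 (Adam17) to 0.36 (Itga4) on the left and from -0.25 (Cd37) to 0.20 (Tspan18) on the right, and every bar crosses 0.

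Cd82 is also found on leukocytes, so leukocyte markers are given beside it. Of 11 macrophage and leukocyte markers, 6 were tested, all 6 had a mean below 0, and 3 of their 7 probes had an unadjusted p below 0.05, all lower. Over all probes 49.1% had a fitted mean below 0, 5.05% had an unadjusted p below 0.05 in limma and 0.0324% were called. The 3 marker probes were both of Lyz2 and that of Cd68. Lyz2 was below 0 on 14 of 14 arrays, Cd68 on 11 of 13 and Tyrobp on 10 of 14. Fcer1g and Ptprc were each below 0 on 6 of 11 arrays, and Cd37 on 5 of 10. Lyz2 was called, by 1 of its 2 probes (gene mean -1.62 ± 0.96, SD, n = 14; adjusted p = 0.0454 for the called probe in limma). The mean over these markers, Lyz2 among them, was below 0 on each array and ran from -3.03 to -0.096. No mean without Lyz2 is given. With the Cy3 arrays turned the mean over the markers ran from -1.19 to 3.03. It was then below 0 on 7 arrays by construction, and 1 of the 6 markers had a mean below 0. Cd37, a leukocyte tetraspanin, had a mean of -0.25 ± 1.02 (SD, n = 10). The part of such cells in the Cd82 ratio was not tested, and in RNA of whole cultures fewer cells of a type and less RNA per cell cannot be told apart. Of 10 fibroblast markers all were tested, 5 lay below and 5 above 0, and 0 were called by limma. Among their 19 probes 1 had an unadjusted p below 0.05, that of Dcn (p = 0.00528 in limma). Dcn had a mean of -0.65 ± 0.72 (SD, n = 14) and was below 0 on 10 of 14 arrays. Of the 5 epithelial markers 4 lay above 0, and the 2 endothelial markers tested lay at 0.34 and 0.40. The 2 adipocyte markers tested lay at -0.57 for Adipoq, with an unadjusted p of 0.0392 in limma, and at -0.0032. The 2 muscle markers tested lay at -0.29 and 0.72. None of these was called.

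The genes whose ratios followed Cd82 most closely over the arrays were Frmpd1, Garem1, E130308A19Rik, Nfkbib and ccdc198, with Pearson r between 0.73 and 0.79 over 12 to 14 arrays. The most opposed were Ifi209, Adam1a and Ssh2, with r between -0.86 and -0.84. They are the extremes of 10259 probes, share arrays and centring with Cd82, and have no p. Without replicates 7 and 9, the arrays farthest from the Cd82 median, r was 0.34 to 0.64 for the first 5 and -0.76 to -0.56 for the last 3.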

How the data were processed

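Per the labels, 14 two-colour cDNA arrays compared Ptdsr-/- with wild-type fibroblasts, indirectly labelled with Cy3 or Cy5. The deposited table holds log2 ratios of 20355 probes. Base 2 was read from the values. The labels name no scanner, background correction or normalization. Values above 12 in size, a repeated code 16.6 units from each array's 1:1 step, were set to missing, and arrays were centred on their medians. Platform annotation gave 1 symbol for 14030 probes, several for 5 and none for 6320.

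Probes with values on at least 10 arrays, 4 per dye orientation, were fitted with limma 3.58.1 in R 4.3.3 (intercept and dye term, lmFit, eBayes, Benjamini-Hochberg over all probes, threshold 0.05). Reported means are plain means over arrays, and intervals are 95% limits of the fitted mean. The knockout comparison was also run on simulated data with independent normal noise over 18503 probes, a small set of them shifted. Of the shifted probes alone, it recovered 2% of those shifted by 0.5 log2 units, 46% at 1 unit and 88% at 2 units. There were 7 false calls. Each rate rests on few shifted probes. The simulated noise held no single far arrays and no shared cultures, so these rates need not hold for the real arrays.

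Members and lists were chosen with earlier results of these data known. Named were all members, the 6 genes with the largest absolute mean on 12 or more arrays in the partner list and in the superfamily list, and the 5 genes most like and 3 least like Cd82. Igsf8, Itgb1, Tspan32 and Cd37 were added after their values were seen. Dye orientation, centring, filters, blocks and single arrays were varied.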

Additional observations from a re-analysis of the deposited data

Results flagged for a closer look

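Single arrays stood far from the others within a dye orientation for 3 of the genes, in 4 of 15 gene and orientation groups examined. The limit used flags about 1 in 20 groups when values are normally distributed. The share flagged over all probes was not computed, so no excess is read from this count. Cd9 stood at -2.87 on replicate 7, with the nearest array of the Cy5 orientation at -0.16. It stood at -3.11 on replicate 2, with the nearest Cy3 array at -0.45. Replicate 2 had the fewest usable ratios of any array, 13165, and the most coded extremes, 315. Cd63 stood at -4.95 on replicate 13, with the nearest Cy5 array at -0.41. Cd151 stood at 0.83 on replicate 2, with the nearest Cy3 array at 0.17, and its Cy3 mean without that array was -0.13 ± 0.16 (SD, n = 6). No other value was set apart in this way in the groups examined, which covered both orientations of the 7 tested genes and the Cy5 orientation of Tspan3.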

How the results depend on the processing

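The counts of called probes among the 6 other tetraspanins, the partners and the further superfamily were 0 under all 29 alternatives run. The dye term of the tetraspanins was called in 0 under the 25 alternatives that could test it. For the knockout comparison no alternative called more than 11 of all probes, so 0 in lists this small says little. The mean of Cd82 stayed between -0.56 and -0.49 without single arrays and moved to 0.018 with the Cy3 arrays turned. Turning those arrays swaps the fitted mean and the dye term of every probe, so that alternative repeats the dye test. The count over all probes was 11 of 6134 tested with values required on all arrays, 11 of 11856 with small whole-number ratios set to missing, 1 with the Cy3 arrays turned, 0 with either orientation alone and 4 to 8 without single arrays. The dye term of Cd82 changed sign without centring (-0.016), after scaling (-0.026) and without replicates 2, 7 and 13 together (-0.038), an alternative chosen after seeing the data, and ran from -0.023 to 0.040 without single arrays. Its adjusted p stayed at 0.948 or above.

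The means of the other genes changed sign as follows. With the knockout in Cy3 alone, Cd9 stood at 0.067, Cd63 at 0.55 and Tspan4 at 0.16. With the knockout in Cy5 alone, Cd81 stood at 0.044 and Tspan31 at 0.12. Turning the Cy3 arrays gave 0.17 for Cd81 and 0.17 for Tspan31, and scaling gave 0.0048 for Tspan31. Without replicates 2, 7 and 13, Cd9 stood at 0.36, Cd63 at 0.21 and Cd151 at -0.024. Without single arrays the ranges were -0.24 to 0.15 for Cd9, -0.31 to 0.19 for Cd63, -0.16 to -0.057 for Cd81, 0.028 to 0.13 for Cd151, -0.64 to 0.071 for Tspan4 and -0.11 to 0.0037 for Tspan31. The cause of these changes was not tested. Requiring values on all arrays left no value for Cd63, Tspan4 and Tspan31, and removing small whole-number ratios left none for Tspan4. Each ratio sets knockout against wild type on the same array, so the comparison is paired by its construction.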
